A study of Trichoderma reesei RUT C-30 with 16 samples.

Results

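Enzymes that cut the polysaccharides of fungal cell walls are described here by the transcripts of 4 genes, TrA1911W, TrA0222W, TrF0994W and TrA2134C, which are 4 of the 10008 genes in the count tables. They were taken by their Ids, and all 4 were among the 9101 genes with enough reads to be fitted. The study lists all 4 as putative glycoside hydrolases. It calls TrA1911W (TRIREDRAFT_120953) a chitinase of glycoside hydrolase family GH18. TrA0222W (TRIREDRAFT_73248) and TrF0994W (TRIREDRAFT_121746) are named β-1,3 glucanases of family GH55, and TrA2134C (TRIREDRAFT_120873) an α-1,3 glucanase of family GH71. The study picked them from these same samples for their behaviour in the Δres2 and Rut-C30 strains, so a strain difference in them is not independent evidence.

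RNA-seq was done on mycelia of Trichoderma reesei, a filamentous fungus grown in industry for its secreted cellulases, in 16 libraries of 8 groups of 2. The Δres2 strain is a single transformant of Rut-C30 in which the transcription factor gene res2 was replaced by a hygromycin resistance cassette, and Rut-C30 is its cellulase-overproducing parent, so every group carries the Rut-C30 background. Each strain was grown in flasks fed with lactose or with glucose, with or without 10 mM dithiothreitol (DTT) for 2 h. DTT breaks disulfide bonds and so stresses protein folding in the endoplasmic reticulum, and lactose feeding induces cellulases. The groups are lactose with DTT (LD), lactose control (LC), glucose with DTT (GD) and glucose control (GC). The study gives the libraries of a group as biological duplicates.

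Fungal walls are built from chitin, β-1,3 glucan and, in many species, α-1,3 glucan, around which other glucans and mannoproteins are arranged. Fungal chitinases of family GH18 cut chitin inside or at the ends of chains. Family GH55 enzymes cut β-1,3 glucan, and family GH71 enzymes cut α-1,3 glucan. In Trichoderma, a genus known for attacking other fungi, such enzymes are studied both for turnover of the fungus's own wall and for digestion of the walls of its prey. The study predicted all 4 proteins to be secreted or located in the wall.

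The 4 genes lay apart from each other in the deposited annotation of the QM6a genome, in which exons cover coding sequence. TrA1911W was placed on the plus strand of chromosome I at 6089419 to 6091236, with 4 exons and a coding length of 1503 bp. TrA0222W was also on the plus strand of chromosome I, at 616977 to 620386, with 8 exons and 2984 bp. Its summed exon length is not a multiple of 3, and the annotation gives its model as different from the JGI one. TrF0994W was a single exon of 2331 bp on the plus strand of chromosome VI, at 3323294 to 3325624, also with a model different from the JGI one. TrA2134C was on the minus strand of chromosome I at 6769132 to 6771194, with 4 exons and 1869 bp. No other annotated gene overlapped any of the 4.

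Levels are given as normalized read counts, which are read counts scaled to the mean effective library size. To compare genes, they were divided by coding length. Over all libraries, TrA1911W averaged 1547 normalized counts per kb, above 73.4% of the 8944 fitted genes with a length. TrF0994W averaged 397 per kb, above 40.1% of them. TrA2134C and TrA0222W were low, at 46.2 and 33.8 per kb, above 11.0% and 8.86% of genes. The 4 genes also differed in their range. The highest library exceeded the lowest 243-fold for TrA1911W, 74.5-fold for TrA2134C, 18.9-fold for TrF0994W and 7.85-fold for TrA0222W. The raw counts behind these values were 31 to 8091 reads for TrA1911W, 120 to 4182 for TrF0994W, 40 to 295 for TrA0222W and 5 to 504 for TrA2134C, so that the lowest values of TrA2134C rest on few reads.

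**Figure D1:**
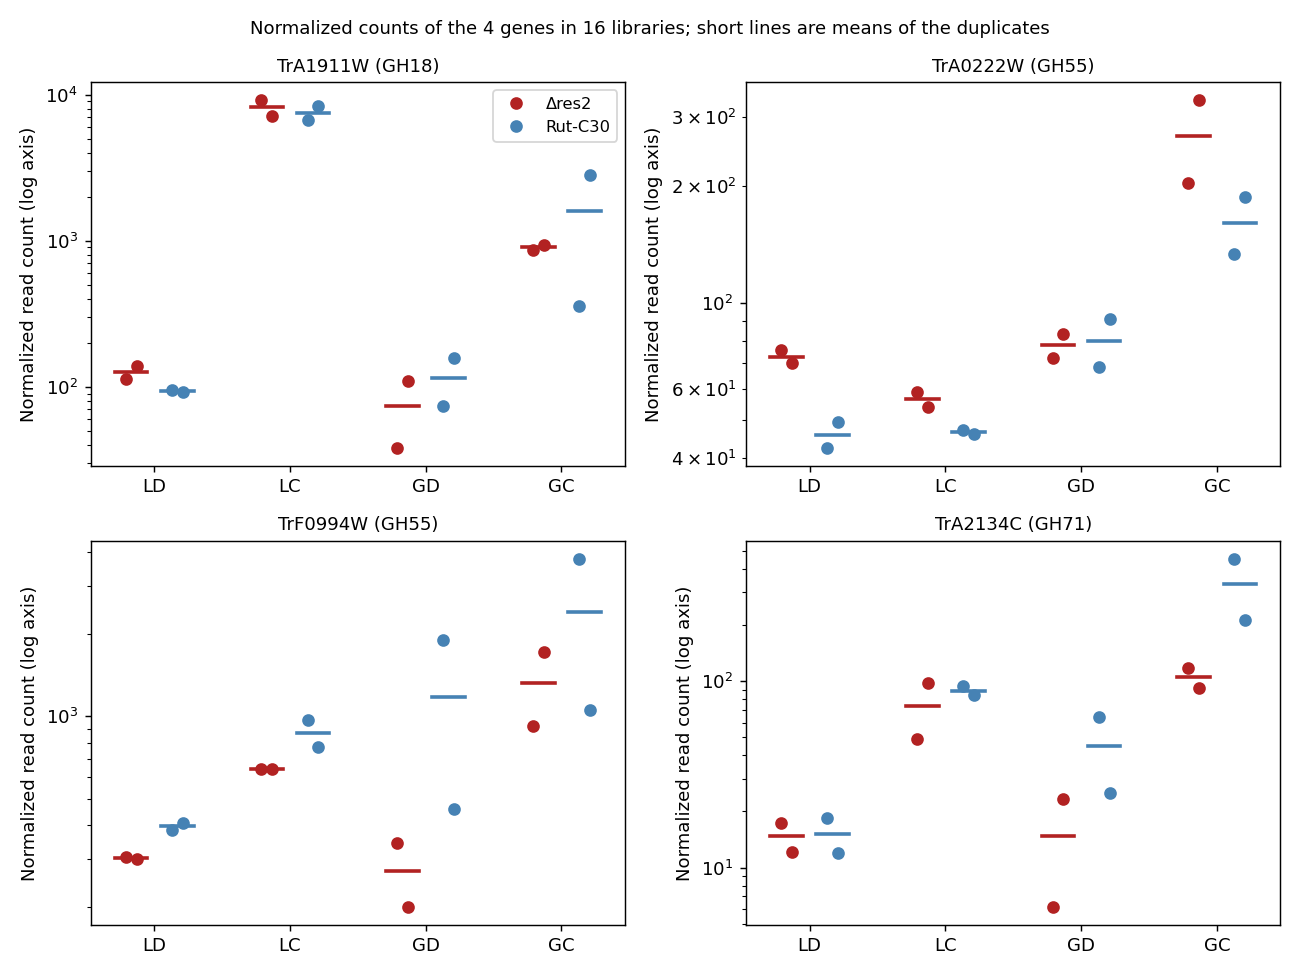
Normalized read counts (log axis, a separate scale for each gene) of the 4 genes in each library, with Δres2 left of Rut-C30 in each condition (LD, LC, GD, GC); points are libraries and short lines are means of the duplicates. TrA1911W is highest in the 4 LC libraries, at 6661 to 9216, while the other genes have their highest library in GC.

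Total counts per library were 20351784 to 35679977. Duplicates were much closer to each other in lactose (Pearson r of log2 levels 0.991 to 0.995) than in glucose (0.880 to 0.953), and the biological coefficient of variation was 0.0711 among lactose libraries and 0.494 among glucose libraries. The fit on all libraries uses one spread for both, 0.355. The Rut-C30 GC duplicates stood far apart, with 926 normalized counts of the cellobiohydrolase gene cbh1 in replicate 1 and 129780 in replicate 2. The Δres2 GC libraries lay between them, at 43322 and 33217. Which of the Rut-C30 GC duplicates is the unusual one was not tested. The Rut-C30 glucose libraries carry library numbers of another run of numbers than all other libraries, so this numbering and the groups cannot be told apart in comparisons between Rut-C30 glucose and lactose or between strains in glucose. The DTT labels fitted the folding genes bip1, an ER chaperone, and pdi1, a protein disulfide isomerase, which were 1.95 to 4.78 higher on the log2 scale with DTT in both strains and carbon sources. A single gene, TrA1112W, had 2900 to 7046 reads in every Rut-C30 library and at most 2 in every Δres2 library. The sources used here pair no Id with res2.

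Comparisons between groups were made with edgeR's quasi-likelihood test over all fitted genes, with Benjamini-Hochberg adjusted p-values. Genes are called DE (differentially expressed) where they meet the study's limits. These ask for an adjusted p below 0.005, a fold change beyond 2 on the log2 scale in either direction, and 100 or more normalized counts on average in the libraries compared. Because these limits leave out weak genes, the plain rule of an adjusted p under 0.05 is given beside them. Errors after ± are standard errors of the log2 fold change unless marked SD. Where the libraries of a group are said to lie apart from those of another, this is a description only, because it is common with duplicates. Between the strains 56.0% of all genes did so in LC and 60.6% in LD. The share of all genes was not counted for the other comparisons.

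With DTT in lactose cultures the chitinase gene TrA1911W fell in both strains, the largest change seen among the 4 genes in the comparisons made here. Its LD libraries held 112 and 139 normalized counts in Δres2, against 9216 and 7143 in Δres2 LC. In Rut-C30, LD libraries held 95.1 and 92.3, against 6661 and 8370 in LC. LD and LC libraries were far apart in both strains, which is a description only. In mycelium sampled whole, fewer cells that express a gene and less RNA per cell cannot be told apart. The log2 fold change LD/LC was -6.02 ± 0.73 in Δres2, a 65.0-fold lower level, with an edgeR adjusted p of 0.00053. In Rut-C30 it was -6.32 ± 0.73, an 80.1-fold lower level, with an edgeR adjusted p of 0.000413.

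TrA1911W was the 1 gene of the 4 that was DE in LD/LC in each strain, where 8.96% of all genes were DE in Δres2 and 9.44% in Rut-C30. Both calls rest on having both LD libraries, because the edgeR adjusted p became 0.0108 and 0.00951 without Δres2 LD replicate 1 or 2, and 0.0085 and 0.00874 without Rut-C30 LD replicate 1 or 2. The adjusted p stayed under 0.05 in all 22 alternative fits of each strain.

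The GH71 gene TrA2134C also fell with DTT in lactose, at far lower counts. It had 17.3 and 12.2 normalized counts in Δres2 LD, against 49.0 and 97.7 in Δres2 LC. Rut-C30 had 18.4 and 12.0 in LD, against 94.1 and 84.1 in LC. No LD library reached an LC library of its strain, a description without a share of all genes beside it. The log2 fold change was -2.30 ± 0.66 in Δres2 (edgeR adjusted p = 0.0183) and -2.55 ± 0.64 in Rut-C30 (edgeR adjusted p = 0.0104). Its mean counts of 44.0 and 52.2 lie under the study's minimum of 100, so it could not be DE. Its edgeR adjusted p rose above 0.05 without Δres2 LC replicate 2 (-1.73), Δres2 LD replicate 1 (-2.57), Δres2 LD replicate 2 (-2.07) or Rut-C30 LD replicate 2 (-2.26). On the lactose libraries alone the values were -2.26 ± 0.42 in Δres2 (edgeR adjusted p = 6.57e-05) and -2.58 ± 0.37 in Rut-C30 (edgeR adjusted p = 5.08e-06). In that fit 81.1% of all genes in Δres2 and 82.2% in Rut-C30 had an adjusted p under 0.05.

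Of the GH55 genes, TrF0994W was lower with DTT in lactose by about the same amount in each strain. It had 305 and 300 normalized counts in Δres2 LD, against 642 and 643 in Δres2 LC, and 382 and 408 in Rut-C30 LD, against 972 and 773 in Rut-C30 LC. Again LD and LC did not overlap, and the share of all genes for which this held was not counted. The log2 fold changes were -1.09 ± 0.65 in Δres2 and -1.14 ± 0.64 in Rut-C30, with edgeR adjusted p = 0.207 and 0.183 in the fit on all libraries. Fitted on the lactose libraries alone, whose duplicates were closer, they were -1.06 ± 0.12 (edgeR adjusted p = 5.67e-07) and -1.17 ± 0.11 (edgeR adjusted p = 6.48e-08). In that fit 81.1% of all genes in Δres2 and 82.2% in Rut-C30 had an adjusted p under 0.05, so a pass there is common.

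TrA0222W, the other GH55 gene, stayed at a low level in every lactose library. It had 75.6 and 70.0 normalized counts in Δres2 LD, against 59.2 and 54.1 in Δres2 LC, and 42.3 and 49.5 in Rut-C30 LD, against 47.1 and 46.1 in Rut-C30 LC. The log2 fold change was 0.36 (95% interval -0.36 to 1.08, edgeR adjusted p = 0.403) in Δres2 and -0.02 (95% interval -0.74 to 0.70, edgeR adjusted p = 0.967) in Rut-C30. Under the plain rule 2 of the 4 genes passed in LD/LC in each strain, TrA1911W and TrA2134C, against 40.9% of all genes in Δres2 and 41.4% in Rut-C30.

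In glucose cultures DTT came with lower levels of all 4 genes. In Δres2 all 4 had an edgeR adjusted p under 0.05, against 41.3% of all genes, and in Rut-C30 3 of 4 did, against 34.5% of all genes. None was DE under the study's limits in either strain by edgeR, which called 8.45% of all genes in Δres2 and 6.45% in Rut-C30. With DESeq2 in place of edgeR, TrA1911W and TrF0994W were DE in Δres2, and TrA1911W and TrA2134C were DE in Rut-C30, beside 11.1% and 8.99% of all genes. When the glucose libraries were fitted alone none of the 4 genes passed an adjusted p of 0.05 in either strain (edgeR adjusted p 0.0635 to 0.127 in Δres2 and 0.0735 to 0.492 in Rut-C30), where 11.2% and 6.73% of all genes passed. Unadjusted, 4 of 4 genes in Δres2 and 2 of 4 in Rut-C30 had an edgeR p under 0.05 in that fit. Of the 8966 genes in it, 2990 in Δres2 and 2515 in Rut-C30 did so. With limma's voom and a weight per group none of the 4 passed in Δres2 (adjusted p 0.248 to 0.560), where 5.29% of all genes passed, and TrA1911W and TrA2134C passed in Rut-C30, where 29.0% did.

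TrA1911W had 37.9 and 110 normalized counts in Δres2 GD, against 867 and 931 in Δres2 GC. Its Rut-C30 values were 73.4 and 156 in GD, against 359 and 2828 in GC. The GC libraries of Rut-C30 thus differed 7.88-fold from each other, and the higher was replicate 2, which also held more cbh1 than replicate 1. The log2 fold change GD/GC was -3.62 ± 0.76 in Δres2 (edgeR adjusted p = 0.00586) and -3.79 ± 0.73 in Rut-C30 (edgeR adjusted p = 0.00526). Without Rut-C30 GC replicate 2 the Rut-C30 value was -1.56, with an edgeR adjusted p of 0.0581, and without Rut-C30 GD replicate 1 it was -3.35, with an edgeR adjusted p of 0.0553. It was -4.57 without Rut-C30 GC replicate 1 and -4.44 without Rut-C30 GD replicate 2. The Δres2 value was -2.98 and -4.57 without GD replicate 1 or 2 (edgeR adjusted p = 0.0416 and 0.00815).

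TrA2134C had 6.12 and 23.3 normalized counts in Δres2 GD, against 118 and 92.3 in Δres2 GC. In Rut-C30 it had 64.6 and 25.2 in GD, against 456 and 213 in GC. GD and GC did not overlap in either strain, and how common this was over all genes was not counted. The log2 fold changes were -2.87 ± 0.67 in Δres2 (edgeR adjusted p = 0.00779) and -2.90 ± 0.61 in Rut-C30 (edgeR adjusted p = 0.0063). They moved with single libraries, to -2.13 and -4.08 in Δres2 without GD replicate 1 or 2, and in Rut-C30 to -2.19 without GC replicate 1 and -3.72 without GD replicate 1. The edgeR adjusted p stayed under 0.05 in those fits. The lowest of these libraries, Δres2 GD replicate 1, held 5 reads of the gene.

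TrF0994W had 344 and 200 normalized counts in Δres2 GD, against 925 and 1725 in Δres2 GC, and fell by 2.28 ± 0.65 on the log2 scale (edgeR adjusted p = 0.0203). This adjusted p became 0.0936 without Δres2 GC replicate 2 and 0.0893 without Δres2 GD replicate 2. In Rut-C30 its GD libraries held 1898 and 458, against 3781 and 1058 in GC, so that the groups overlapped. The Rut-C30 log2 fold change of -1.04 ± 0.64 did not pass (edgeR adjusted p = 0.238), was 0.21 without GC replicate 1 and -2.40 without GD replicate 1 (edgeR adjusted p = 0.0421).

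TrA0222W had 72.2 and 83.3 normalized counts in Δres2 GD, against 203 and 332 in Δres2 GC, and 68.5 and 90.8 in Rut-C30 GD, against 134 and 187 in Rut-C30 GC. No GD library reached a GC library, which was not counted over all genes. The log2 fold change was -1.78 ± 0.32 in Δres2 (edgeR adjusted p = 0.00194) and -1.01 ± 0.32 in Rut-C30 (edgeR adjusted p = 0.0317). The Rut-C30 edgeR adjusted p rose above 0.05 in 11 of the fits that left out 1 library. Leaving out any lactose library, Rut-C30 GC replicate 2 or either Rut-C30 GD library did so.

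**Figure D2:**
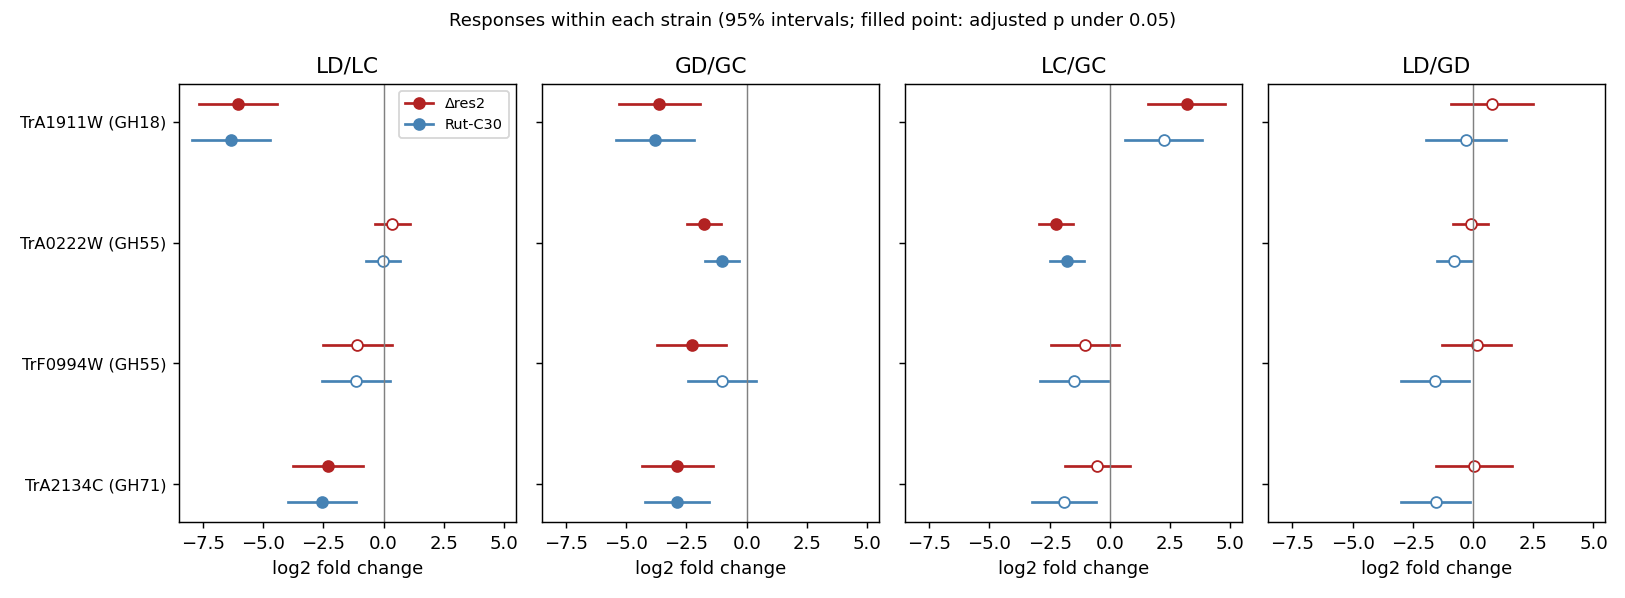
Log2 fold changes with 95% intervals for the 4 genes in LD/LC, GD/GC, LC/GC and LD/GD, with Δres2 above Rut-C30; filled points have an edgeR adjusted p under 0.05 in the fit on all libraries. The intervals of TrA1911W lie below 0 in both DTT comparisons of both strains, and the intervals of TrA0222W lie below 0 in GD/GC and include 0 in LD/LC.

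The DTT response was set against the carbon source as the LD/LC log2 fold change minus the GD/GC one, averaged over the strains. By edgeR on all libraries TrA0222W was the 1 gene of the 4 that passed an adjusted p of 0.05 in it, beside 7.41% of all genes. Its difference was 1.57 ± 0.32 (edgeR adjusted p = 0.0165). TrA0222W was lower with DTT in glucose and near its control in lactose. TrA1911W gave -2.47 ± 0.74, a larger drop in lactose, which did not pass by edgeR (adjusted p = 0.0727). With DESeq2 TrA1911W did pass (-2.54 ± 0.73, adjusted p = 0.00699), as did TrA0222W, beside 1263 of 9380 genes. TrF0994W and TrA2134C gave 0.55 ± 0.65 and 0.46 ± 0.65, with edgeR adjusted p = 0.686 and 0.744. For TrA0222W the adjusted p was 0.0936 with limma's voom and a weight per group, and 0.0506 to 0.0585 without Rut-C30 LC replicate 2, Rut-C30 LD replicate 2, Δres2 LC replicate 1, Δres2 LC replicate 2 or Δres2 LD replicate 1. The TrA1911W value was -2.08 without Rut-C30 GC replicate 1, -3.59 without Rut-C30 GC replicate 2 and -2.80 without Δres2 GD replicate 1.

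Lactose against glucose without DTT divided the 4 genes. The chitinase gene TrA1911W was higher in lactose and TrA0222W was lower. In Δres2, TrA1911W had 9216 and 7143 normalized counts in LC, against 867 and 931 in GC, a log2 fold change of 3.19 ± 0.72 (edgeR adjusted p = 0.0393). In Rut-C30 it had 6661 and 8370 in LC, against 359 and 2828 in GC, a log2 fold change of 2.24 ± 0.72 that did not pass (edgeR adjusted p = 0.14). LC lay above GC in all libraries of both strains, though the share of all genes with such separate groups was not counted. The Rut-C30 value moved both ways when 1 library was left out, from 1.46 at the lowest to 4.47 without Rut-C30 GC replicate 2. The Δres2 value did not pass when any lactose library or either Δres2 GC library was left out (10 fits, edgeR adjusted p 0.0663 to 0.196).

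TrA0222W had 59.2 and 54.1 normalized counts in Δres2 LC, against 203 and 332 in Δres2 GC, and fell by 2.24 ± 0.32 on the log2 scale (edgeR adjusted p = 0.00528). Rut-C30 had 47.1 and 46.1 in LC, against 134 and 187 in GC, and the fold change was -1.78 ± 0.32 (edgeR adjusted p = 0.0167). LC lay below GC in both strains, again as a description without a share of all genes. Without a Δres2 LC replicate the edgeR adjusted p in Δres2 was 0.0667 and 0.0783, and without a Rut-C30 LC replicate that in Rut-C30 was 0.132 and 0.163.

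TrF0994W and TrA2134C were lower in lactose on average and did not pass. TrF0994W changed by -1.04 ± 0.64 in Δres2 and -1.47 ± 0.64 in Rut-C30 (edgeR adjusted p = 0.367 and 0.264). TrA2134C changed by -0.52 ± 0.61 in Δres2, where 49.0 and 97.7 normalized counts in LC overlapped 118 and 92.3 in GC. In Rut-C30 it changed by -1.90 ± 0.60, with 94.1 and 84.1 in LC, against 456 and 213 in GC (edgeR adjusted p = 0.127, and 0.0426 without Δres2 GD replicate 2).

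Under the plain rule LC/GC thus gave 2 of 4 genes in Δres2, against 6.12% of all genes, and 1 of 4 in Rut-C30, against 3.47% of all genes. None of the 4 was DE in LC/GC in either strain by edgeR, where 0.440% of all genes were DE in Δres2 and 0.363% in Rut-C30. With DESeq2, TrA1911W (3.25 ± 0.72) and TrA0222W (-2.17 ± 0.35) were DE in LC/GC of Δres2, beside 2.40% of all genes, and none of the 4 in Rut-C30, beside 2.00%. Under the plain rule 3 of 4 passed in Rut-C30 with other tools, since TrA1911W and TrA2134C joined TrA0222W with DESeq2 (adjusted p = 0.0211 and 0.0454, beside 8.33% of all genes) and with limma's voom and a weight per group (adjusted p = 0.0148 and 0.0324, beside 8.04%).

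With DTT present in both cultures, lactose and glucose differed by amounts that did not pass for any of the 4 genes. In LD/GD the log2 fold changes were -0.09 to 0.78 in Δres2 (edgeR adjusted p at least 0.611) and -1.58 to -0.30 in Rut-C30 (edgeR adjusted p at least 0.229). None passed either rule, beside 0.143% of all genes DE in Δres2 and 0.0879% in Rut-C30, and 2.77% and 3.33% under the plain rule. In Rut-C30, TrA0222W, TrF0994W and TrA2134C gave an unadjusted edgeR p under 0.05, as did 1615 of all 9101 genes. The bounds are wide, as for TrA1911W, whose 95% intervals ran over -0.91 to 2.47 in Δres2 and -1.94 to 1.35 in Rut-C30.

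The order of the mean levels was LC, GC and then both DTT groups for TrA1911W in each strain. Its LC means were 8179 ± 1465 in Δres2 and 7516 ± 1208 in Rut-C30, its GC means 899 ± 45.2 and 1593 ± 1746, and its DTT means 73.9 to 126 (SD, n = 2 each). TrA2134C, TrF0994W and TrA0222W were highest in GC in each strain. For TrA2134C the GC means were 105 ± 18.2 in Δres2 and 334 ± 172 in Rut-C30, followed by LC with 73.3 ± 34.4 and 89.1 ± 7.06, and its DTT means were 14.7 to 44.9. Its GC and LC libraries overlapped in Δres2. For TrF0994W the GC means of 1325 ± 565 in Δres2 and 2419 ± 1925 in Rut-C30 had the largest SD of each strain, while the ratio of duplicates was largest in GD of Rut-C30, at 4.15. In Δres2 LC, LD and GD followed GC for that gene, and in Rut-C30 GD, LC and LD did, with the GD libraries of Rut-C30 on both sides of LC. TrA0222W was lowest in lactose in both strains, at 56.7 ± 3.62 in Δres2 LC and 45.9 ± 5.09 in Rut-C30 LD. For its LD, LC and GD groups, LD/LC and LD/GD did not pass in either strain, and LC was not tested against GD.

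The strains were then compared in the same condition. None of the 4 genes passed an edgeR adjusted p of 0.05 in any of the 4 conditions (16 values, lowest 0.296) or on average (lowest 0.385). Unadjusted, 4 of the 16 values had an edgeR p under 0.05, as did 3 of the 4 averages. The 4 were those of TrF0994W and TrA2134C in GD and of TrA0222W and TrA2134C in GC. Of all 9101 genes, 1031 had an unadjusted p under 0.05 in GD, 572 in GC, 131 in LC, 138 in LD and 870 on average. The share of all genes that passed an adjusted p of 0.05 was 0.0549% in GD, 0.0330% in GC, 0.0220% in LC, 0.0110% in LD and 0.0440% on average. TrF0994W and TrA2134C gave unadjusted intervals below 0 on average over the conditions, at -0.95 (95% interval -1.66 to -0.24) and -0.91 (-1.62 to -0.20), and TrA0222W gave one above 0, at 0.41 (0.05 to 0.77). TrA1911W differed by -0.23 (-1.05 to 0.58). TrF0994W was lower in Δres2 by all 4 conditions' estimates, most in GD, where it held 344 and 200 normalized counts in Δres2, against 1898 and 458 in Rut-C30 (-2.11 ± 0.65, edgeR adjusted p = 0.296). Without Rut-C30 GD replicate 1 the GD value was -0.75, and without Rut-C30 GC replicate 1 the GC value turned to 0.33.

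TrA2134C was lower in Δres2 by the GC and GD estimates, which did not pass, at -1.67 ± 0.60 and -1.64 ± 0.68 (edgeR adjusted p = 0.722 and 0.395). The GD value was -2.85 ± 0.89 without Δres2 GD replicate 2 (edgeR adjusted p = 0.0412), a fit in which 22.1% of all genes passed, and -0.82 without Rut-C30 GD replicate 1 (edgeR adjusted p = 0.852) and -0.92 without Δres2 GD replicate 1 (edgeR adjusted p = 0.581). In lactose it did not separate the strains, with -0.28 ± 0.61 in LC and -0.04 ± 0.68 in LD. TrA1911W in GC turned with a single library. It gave -0.83 ± 0.72 with all libraries, 1.38 without Rut-C30 GC replicate 2 and -1.63 without Rut-C30 GC replicate 1.

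In lactose the duplicates were close and small differences could be seen. TrF0994W had 642 and 643 normalized counts in Δres2 LC, against 972 and 773 in Rut-C30 LC. Fitted on the lactose libraries alone the log2 fold change of Δres2 over Rut-C30 in LC was -0.46 ± 0.11 (edgeR adjusted p = 0.0103), which passed, beside 13.9% of all genes. In LD that fit gave -0.34 ± 0.12 for TrF0994W (edgeR adjusted p = 0.0682) and 0.70 ± 0.22 for TrA0222W (edgeR adjusted p = 0.0511), beside 13.3% of all genes passing. TrA0222W in LD passed with limma's voom and a weight per group (0.66 ± 0.15, adjusted p = 0.0144), beside 12.6% of all genes. In LC 2 of the 4 genes had Δres2 libraries that did not overlap those of Rut-C30, TrF0994W and TrA0222W, and in LD 3 did, with TrA1911W added. Duplicates that did not overlap were the rule, with 56.0% of all genes in LC and 60.6% in LD.

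**Figure D3:**
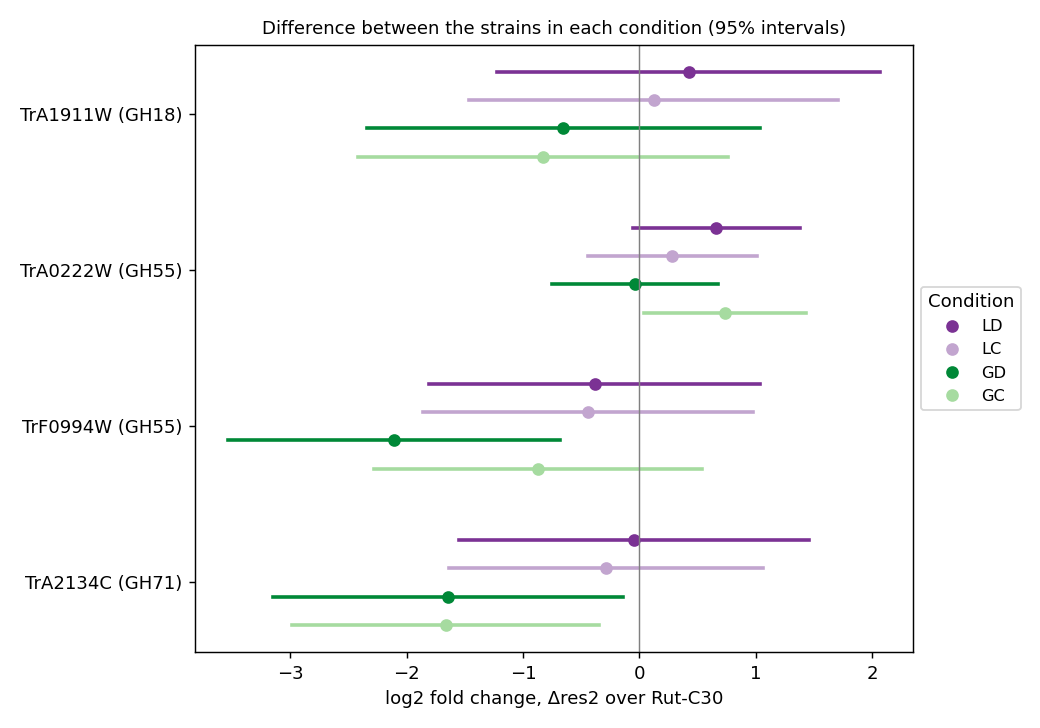
Log2 fold changes of Δres2 over Rut-C30 with 95% intervals (not adjusted for the number of genes) in LD, LC, GD and GC for the 4 genes, from the fit on all libraries. Most intervals include 0, and those of TrF0994W in GD and TrA2134C in GD and GC lie below it while that of TrA0222W in GC lies above it.

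A gene can pass a limit in 1 strain only without responding differently in the strains, so the difference between the responses was tested directly, as the Δres2 log2 fold change minus the Rut-C30 one. None of the 16 values passed (lowest edgeR adjusted p 0.907), and they ran from -1.24 to 1.73. Over all 9101 genes, edgeR passed 0 in GD/GC, where 474 had an unadjusted p under 0.05, DESeq2 called 15 and voom 0. In LD/LC edgeR also passed 0, with 66 at an unadjusted p under 0.05, and DESeq2 called 0, but 171 passed with voom and 350 by edgeR on the lactose libraries alone. In LD/GD edgeR passed 0, with 350 at an unadjusted p under 0.05, while DESeq2 called 9 and voom 0. LC/GC had 0.0110% of genes passing. These counts turned on single libraries, since without Δres2 GD replicate 2 the numbers were 1551 for GD/GC and 1136 for LD/GD, and without Δres2 GC replicate 2 they were 174 for GD/GC and 422 for LC/GC. None of the 4 genes passed in any alternative fit. For TrA1911W the responses differed by 0.30 (95% interval -1.99 to 2.59) in LD/LC and 0.17 (-2.15 to 2.49) in GD/GC. For TrA2134C the differences were 0.24 (-1.78 to 2.26) and 0.02 (-1.98 to 2.02). TrA1911W in LC/GC gave 0.95 (-1.30 to 3.20), which was -1.23 without Rut-C30 GC replicate 2. For TrA2134C in LC/GC it was 1.38 (-0.50 to 3.27). The GD/GC difference was -0.77 (-1.77 to 0.22) for TrA0222W and -1.24 (-3.25 to 0.76) for TrF0994W. These intervals do not show that the strains responded alike.

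The study also names 9 genes of plant cell wall breakdown, which give the chitinase gene a measure. They include cbh1 (TrG0022C), the main cellobiohydrolase, the xylanase genes xyn1 (TrF0479W) and xyn3 (TrC0667W), the β-xylosidase gene bxl1 (TrC1552C) and the β-glucosidase genes bgl1 (TrC1551C), bgl3j (TrA1187C) and cel3d (TrC1576W). This list was chosen by the study on these samples. In LD/LC 6 of the 9 were DE and lower in each strain, beside 8.96% of all genes DE in Δres2 and 9.44% in Rut-C30, with a median log2 fold change of -7.69 in Δres2 and -7.58 in Rut-C30, beside medians of -0.08 and -0.05 over all genes. Values ran from -9.35 for xyn3 to -2.14 for TrC0659C in Δres2, and from -8.32 for xyn3 to -1.84 for TrC0659C in Rut-C30. The values of TrA1911W, -6.02 and -6.32, showed a drop smaller than the list's median and larger than that of bgl3j (-3.09 in Δres2 and -2.99 in Rut-C30). In GD/GC 2 of the 9 were DE and lower in Δres2 and 1 in Rut-C30, beside 8.45% and 6.45% of all genes DE in either direction, with medians of -3.28 and -4.15, beside -0.03 and -0.15 over all genes. In LC/GC 2 of the 9 were DE and higher in Δres2 and 1 in Rut-C30, beside 0.440% and 0.363% of all genes, with medians of 3.11 and 3.19, beside -0.08 and -0.12 over all genes. TrA1911W lay near the median in Δres2, at 3.19, and below it in Rut-C30, at 2.24, which did not pass (edgeR adjusted p = 0.14). The other 3 genes had negative values. So did 2 of the 9 listed genes, which the study calls cel3b (TrF1016C) and abf2 (TrC0659C). TrF1016C gave -0.81 in Δres2 and -1.87 in Rut-C30, and TrC0659C gave -1.66 and -3.03.

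**Figure D4:**
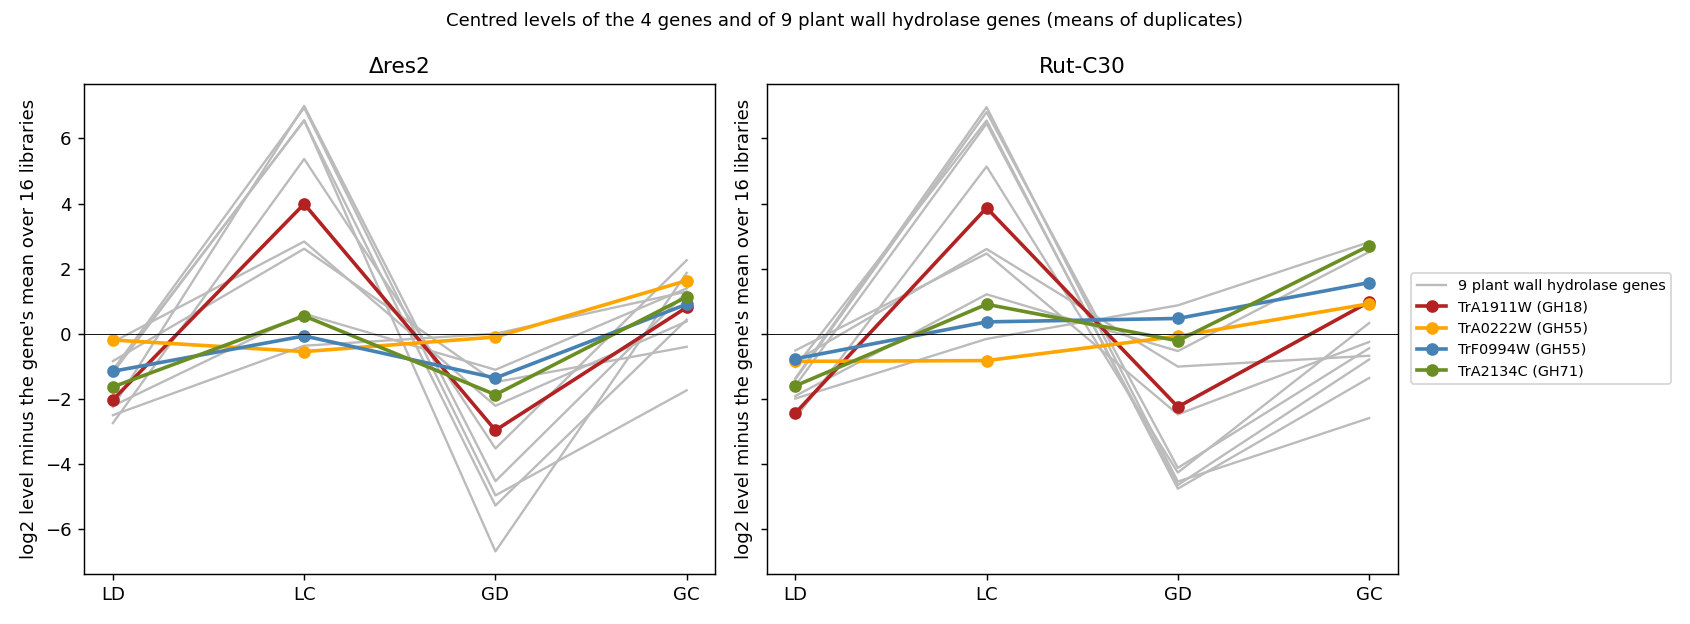
Log2 level of each gene minus its own mean over the 16 libraries, as means of duplicates in LD, LC, GD and GC, for the 4 genes (coloured) and the 9 plant wall genes (grey), with Δres2 on the left and Rut-C30 on the right. TrA1911W peaks in LC as most of the plant wall genes do, and TrA0222W is lower in LC than in GC.

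The study's 6 glycosyltransferase genes, whose products add sugars to proteins or build wall glycans, were also counted. In GD/GC of Δres2, TrA1996C was DE and higher (8.36 ± 1.66, edgeR adjusted p = 0.00447), beside the 8.45% of all genes given above. It held 2773 and 78.3 normalized counts in Δres2 GD, against 0.94 and 7.88 in Δres2 GC, so that the size of the fold rests on GD replicate 1 and a near-zero control. Without that library the value was 4.23 (edgeR adjusted p = 0.0245), and with voom the adjusted p was 0.381. None of the others was DE in any of the 8 responses by edgeR. Under the plain rule a pass was common in the 4 DTT comparisons, with 34.5% to 41.4% of all genes. TrF0192W fell with DTT under it in all 4 (-2.17 to -1.23, edgeR adjusted p 0.00517 to 0.0489). TrA0066W rose in 3 of them (2.21 to 2.62, edgeR adjusted p 0.0123 to 0.0255) and gave 1.39 in GD/GC of Rut-C30 (edgeR adjusted p = 0.132). TrC0059W rose in GD/GC of Δres2 (1.99 ± 0.60, edgeR adjusted p = 0.0248) and passed in no other DTT comparison. Its Δres2 GD libraries held 1974 and 346 normalized counts.

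Among all fitted genes, those with the profile most like each gene over the 16 libraries were found by Pearson's r of log2 normalized levels. As the libraries fall into groups, these r describe shared steps between groups and come with no test. For TrA1911W they were TrE0434C (r = 0.987), TrC1213W (0.986) and TrE0054W (0.984), and 3.60% of all genes had an r over 0.9 with it. TrE0434C was also highest in LC and next in GC, with 20607 normalized counts in Δres2 LC and 18177 in Rut-C30 LC, against 2613 in Δres2 GC and 3547 in Rut-C30 GC. Its DTT means were at most 165, and in Rut-C30 LD exceeded GD, at 165 against 85.2, while TrA1911W had 93.7 in LD, against 115 in GD. For TrA2134C they were TrD0264W (0.966), TrG0214W (0.961) and TrD0451C (0.959). For TrF0994W they were TrC0413C (0.956), TrC1439W (0.948) and TrC1558C (0.929). TrC1439W averaged 359 normalized counts in Δres2 LD and 696 in Rut-C30 LD, and 6132 in Δres2 GC and 12586 in Rut-C30 GC.

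TrA0222W had the fewest like it, with TrC0074C (0.944), TrG0843C (0.917) and TrC1156C (0.903) as the nearest and 0.0330% of genes above 0.9. TrC1156C averaged 711 normalized counts in Δres2 GC and 311 in Rut-C30 GC, and 8.07 to 31.2 in the other groups. Between the 4 genes themselves r was highest for TrF0994W and TrA2134C (0.844) and next for TrA1911W and TrA2134C (0.626). The GH55 genes had an r of 0.456 with each other, and TrA1911W and TrA0222W one of 0.02.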

How the data were processed

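RNA-seq of mycelia gave 16 libraries, 2 biological duplicates for each of 8 groups, with groups and replicate numbers taken from the sample labels. The deposited count tables hold raw reads per gene. Before deposit the authors, with the Eoulsan pipeline, trimmed and filtered single-end reads, aligned them to the QM6a genome with STAR 2.7.8a, removed reads with several alignments and counted reads over coding sequences of their own annotation with HTSeq 0.5.3. Removing such reads lowers counts of near-identical genes. The strand setting of the counting is not given in the sources used here, and no gene overlaps the 4 described.

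Counts were fitted with edgeR 4.0.16 in R 4.3.3 (filterByExpr, TMM factors, robust glmQLFit) as 8 group means over all libraries, with 8 residual degrees of freedom, and p-values were adjusted over 9101 genes. Standard errors come from the fitted weights and the quasi-dispersion. Calls under the study's limits follow its methods, with edgeR in place of DESeq2. Alternatives were DESeq2 1.42.0, DESeq2 size factors in edgeR, no filter beyond 1 count, a replicate block, limma 3.58.1 voom with a weight per group, glucose or lactose libraries alone, other limits and each library left out. The steps were tested on simulated data.

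The 4 genes, the gene lists and the tests were chosen with earlier results of these data known. Genes named besides the 4 are the 3 with the highest Pearson r to each, and members of the lists with the 2 highest or 2 lowest values, with a few well-known genes added after their values were seen. Ids were paired with TRIREDRAFT numbers through the study's tables, for 1729 Ids and all 4 genes. Other genes of families GH18, GH55 and GH71 and of chitin or glucan synthesis were not analysed here, because no product names were given for the Ids. No sequences are shown, because none were given. The authors' own fold changes were not used.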

Additional observations from a re-analysis of the deposited data

Results flagged for a closer look

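The GH55 gene TrA0222W differed between carbon sources in its DTT response, by a test of the difference itself. Its LD/LC log2 fold change exceeded its GD/GC one by 1.57 ± 0.32 on average over the strains (edgeR's quasi-likelihood test, Benjamini-Hochberg adjusted p = 0.0165). The result did not pass with limma's voom and a weight per group (1.53 ± 0.48, adjusted p = 0.0936), nor in some fits that left out 1 lactose library. With each library left out in turn the value ran from 1.37 to 1.68. The difference had the same sign in each strain, since LD/LC was 0.36 in Δres2 and -0.02 in Rut-C30, and GD/GC was -1.78 in Δres2 and -1.01 in Rut-C30. The gene's lactose libraries without DTT already lay under its glucose ones, at 59.2 and 54.1 normalized counts in Δres2 LC and 47.1 and 46.1 in Rut-C30 LC, against 203 and 332 in Δres2 GC and 134 and 187 in Rut-C30 GC. The part of this low starting level in the result was not tested.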

How the results depend on the processing

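Of 1648 alternative values of the 4 genes' log2 fold changes, 1610 kept their sign. This count includes settings that change only the limits, whose values cannot differ from the main ones. It also includes fits that leave out a library of a group not compared, which hardly move a value. The numbers of the 4 genes DE by edgeR (0 in GD/GC and LC/GC, 1 in LD/LC) changed with the rule and the tool. With DESeq2 they were 2 in GD/GC and 2 in LC/GC of Δres2 and 2 in GD/GC of Rut-C30. Beside them 11.1%, 2.40% and 8.99% of all genes were DE. For the LD/LC minus GD/GC difference 2 passed in place of 1, TrA0222W and TrA1911W, beside 1263 of 9380 genes. With limma's voom and a weight per group 1 was DE in LC/GC of Δres2, beside 66 of 9101 genes. With it 1 passed between strains in LD, beside 1150 of 9101, and 0 passed for LD/LC minus GD/GC, beside 379. With an adjusted p under 0.05 alone the numbers were 4, 2 and 2 in GD/GC, LD/LC and LC/GC of Δres2, beside 41.3%, 40.9% and 6.12% of all genes. In Rut-C30 they were 3, 2 and 1, beside 34.5%, 41.4% and 3.47%. With a log2 limit of 1 there was 1 in GD/GC of Δres2, beside 1353 of 9101 genes. On the lactose libraries alone 1 passed between strains in LC, beside 13.9% of all genes.

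The duplicates' numbers pair no samples in the labels, and their deviations correlated above 0.1 in 5 of 28 pairs of groups (-0.26 to 0.62). With a replicate block 1 gene, TrA1911W, was DE in GD/GC of each strain, beside 729 of 9101 genes in Δres2 and 537 in Rut-C30. With it 2 near-zero values turned, TrA2134C LD/GD in Δres2 to -0.0054 and the TrA1911W strain difference in GD/GC to -0.13. That TrA1911W difference was -0.65 with voom, and that of TrA2134C was -0.22 with voom and -0.026 without the filter. The strain difference of TrA2134C in LD was 0.00083 on the lactose libraries alone.

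Leaving out each library in turn gave 0 to 1 DE genes in GD/GC of Δres2, 0 to 1 in LD/LC of each strain, 0 to 2 in LC/GC of Δres2, 0 to 2 in GD/GC and 0 to 1 in LC/GC of Rut-C30, 0 to 1 passing between strains in GD and 0 to 2 for LD/LC minus GD/GC. Values that turned sign ran as follows. In Δres2 LD/GD they were -0.18 to 0.022 for TrA0222W, -0.17 to 0.62 for TrF0994W and -0.64 to 1.26 for TrA2134C. In Rut-C30 they were -2.40 to 0.21 for TrF0994W in GD/GC, -0.13 to 0.090 for TrA0222W in LD/LC and -0.74 to 0.36 for TrA1911W in LD/GD. Between strains they were -1.63 to 1.38 (TrA1911W) and -1.47 to 0.33 (TrF0994W) in GC, -0.23 to 0.18 (TrA0222W) in GD, -0.073 to 0.30 (TrA1911W) and -0.86 to 0.13 (TrA2134C) in LC, -0.32 to 0.29 (TrA2134C) in LD and -0.47 to 0.33 (TrA1911W) on average. For differences between the responses they were -2.02 to 0.99 (TrA1911W), -2.45 to 0.11 (TrF0994W) and -1.19 to 0.84 (TrA2134C) in GD/GC, -0.12 to 0.21 (TrF0994W) and -0.18 to 0.81 (TrA2134C) in LD/LC, and -1.23 to 1.78 (TrA1911W) and -0.75 to 1.05 (TrF0994W) in LC/GC. LD/LC minus GD/GC ran over -0.091 to 1.23 for TrF0994W. The causes were not tested.

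Over all genes, fitting the glucose libraries alone left 2 DE genes in GD/GC of each strain, against 769 in Δres2 and 587 in Rut-C30, and voom left 54 in Δres2, where none of the 4 genes passed 0.05. In LC/GC DESeq2 called 225 in Δres2 and 199 in Rut-C30, against 40 and 33 by edgeR, and voom called 66 and 108. Between strains, 1238 genes passed in LC and 1182 in LD on the lactose libraries alone (voom 761 and 1150), against 2 and 1 in the fit on all, and DESeq2 passed 53 in GC and 203 in GD, against 3 and 5. For the strain difference in LD/LC 350 passed on the lactose libraries alone and 171 with voom, against 0. LD/LC minus GD/GC gave 1263 with DESeq2 and 379 with voom, against 674. The depth limits TrA2134C most, whose lowest library held 5 reads.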
